A study of Homo sapiens with 4 samples.

Results

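Integrin and laminin genes were followed across 4 libraries of the human breast cancer line HCC1937. The members were the rows whose symbol names an integrin alpha or beta subunit or a laminin chain, together with CD151, DST, COL17A1 and DAG1. The rule found 42 genes among the 60487 listed. Of these, 30 reached 1 FPKM (fragments normalized to transcript length and library total) in at least 1 library and were tested, and 24 reached 5 FPKM. The line was sampled as 4 groups of 1 library each, all poly(A)-selected RNA. The vector line is labelled BRCA1 -/-, and the wtBRCA1 line, named for wild-type BRCA1, is labelled wild type. Each line received either DMSO, a solvent, or OTX-015, known as birabresib, which blocks the bromodomains by which BET proteins bind acetylated histones. The labels do not give dose, duration or whether a line is a single clone. No value has a replicate.

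Laminins are trimers of an alpha, a beta and a gamma chain and form the sheet of the basement membrane on which epithelia rest. Integrins are receptors made of an alpha and a beta subunit that tie this matrix to the cytoskeleton. In basal cells of the breast and skin, the laminin that contains LAMA3 and LAMB3 is held by integrin alpha-6 beta-4 in hemidesmosomes, where COL17A1 and DST link it to keratin filaments, and by integrin alpha-3 beta-1 with its tetraspanin partner CD151.

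The files hold no counts and depth is therefore unknown. The FPKM values summed to 909314 and 962378 in the DMSO libraries and to 1496107 and 1477103 in the OTX-015 libraries of the vector and wtBRCA1 lines. The 10 highest genes took 17.4% and 15.3% of that sum under DMSO and 39.2% and 33.8% under OTX-015. BRCA1 was at 37.2 and 40.8 FPKM in vector cells against 171 and 2712 in wtBRCA1 cells under DMSO and OTX-015. Of the epithelial markers, EPCAM was at 377 to 443 FPKM and CDH1 at 101 to 274 in the 4 libraries, and KRT19 was at 124 and 234 FPKM in vector cells but at 3.97 and 1.39 in the wtBRCA1 line. The leukocyte markers CD3E, SPI1 and NKG7 and the fibroblast markers COL1A2, COL3A1, PDGFRA, PDGFRB and DCN were listed at 0 in all 4, as were the endothelial VWF, KDR and TEK and the myoepithelial CNN1. The rest of these lists was low but not at 0. Summed over the 7 fibroblast markers, FPKM was 2.11 and 4.01 in vector cells but 9.78 and 8.39 in wtBRCA1 cells, almost all from COL1A1. The 6 endothelial markers summed to 4.18 to 7.97 FPKM, with PECAM1 up to 4.88, CLDN5 up to 3.51 and CDH5 up to 2.15. The 5 myoepithelial markers summed to 9.34 to 19.7 FPKM, with MYLK up to 8.90, MYH11 up to 5.95, OXTR up to 5.38 and ACTA2 up to 2.41. The part of these in the members' values was not tested. The share of summed FPKM in the 42 members was 0.188% in wtBRCA1 cells under OTX-015 and between 0.216% and 0.226% in the other libraries.

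The starts of 3 of the genes that the results turn on are shown first, because LAMB3 and COL17A1 were higher in both wtBRCA1 libraries while LAMA3, the alpha chain that LAMB3 joins, was not. Each run covers 250 bases before and 50 bases from an annotated start on the gene's strand, from RefSeq on GRCh38.p14, and LAMB3 has more than 1 listed start, of which the outermost and the innermost are given. The LAMA3 start listed lies inside the gene as GENCODE 29 draws it. Capitals mark TGANTCA, the element bound by AP-1, which reads the same on both strands. The coordinates are chr18:23872770-23873069 (plus strand) for LAMA3, chr1:209652376-209652675 and chr1:209651325-209651624 (minus strand) for LAMB3 and chr10:104085831-104086130 (minus strand) for COL17A1.
LAMA3: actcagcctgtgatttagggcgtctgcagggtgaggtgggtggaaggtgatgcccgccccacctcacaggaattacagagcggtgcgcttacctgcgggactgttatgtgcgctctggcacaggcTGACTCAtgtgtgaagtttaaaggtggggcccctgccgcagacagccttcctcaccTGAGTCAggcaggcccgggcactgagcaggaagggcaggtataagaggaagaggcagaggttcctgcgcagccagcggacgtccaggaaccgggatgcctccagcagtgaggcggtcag
LAMB3, outer start: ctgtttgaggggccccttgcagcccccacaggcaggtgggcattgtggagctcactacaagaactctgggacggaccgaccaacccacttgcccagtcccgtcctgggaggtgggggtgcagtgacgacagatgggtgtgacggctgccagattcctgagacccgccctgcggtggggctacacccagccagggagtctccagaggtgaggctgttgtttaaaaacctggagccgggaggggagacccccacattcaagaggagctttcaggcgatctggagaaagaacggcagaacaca
LAMB3, inner start: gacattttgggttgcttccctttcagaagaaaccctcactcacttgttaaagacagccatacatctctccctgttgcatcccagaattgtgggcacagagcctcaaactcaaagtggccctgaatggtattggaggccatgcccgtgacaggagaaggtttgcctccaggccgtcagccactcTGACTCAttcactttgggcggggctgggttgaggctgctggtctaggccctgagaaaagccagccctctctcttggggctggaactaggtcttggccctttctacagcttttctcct
COL17A1: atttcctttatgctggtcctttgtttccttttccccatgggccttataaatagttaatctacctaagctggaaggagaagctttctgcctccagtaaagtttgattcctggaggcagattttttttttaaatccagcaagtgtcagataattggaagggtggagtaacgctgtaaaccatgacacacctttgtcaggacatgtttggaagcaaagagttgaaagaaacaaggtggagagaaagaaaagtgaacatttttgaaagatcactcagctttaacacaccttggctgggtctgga
LAMA3 holds 2 matches, beginning 125 and 69 bases before its start, and LAMB3 holds 1, beginning 67 bases before the inner start. TGANTCA was found in 4 of the 39 start windows that match 29 members (LAMA3, LAMB3, ITGA5 and DST) and in 7.71% of all 35116 windows of this length in the table. TATAAA, the letters of a TATA box, was looked for anywhere in the window on either strand, whatever its distance from the start. It was found in 3 of the 39 (COL17A1, ITGA6 and ITGB1) and in 11.5% of all windows. A match is thus not by itself a TATA box in use. Gene-level FPKM does not tell which start of LAMA3, LAMB3 or DST was used. ITGB4, CD151 and ITGA3 have no entry in the table.

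Effects were read in 2 ways. A pair of libraries was compared as the difference of log2(FPKM + 1), with no test, and called 2-fold when that difference was at least 1 in size. The OTX-015 effect over both lines and the line effect over both treatments were fitted with limma on the same scale over 18295 genes, and "rose" and "fell" refer to a Benjamini-Hochberg adjusted p under 0.05 in that fit. The fit has 1 residual degree of freedom per gene, which holds only how alike the 2 pairs of that gene are. Its SE (standard error) therefore leans largely on a variance shared with genes of similar level. It is near equal for DST (0.32), whose pairs agree, and ITGA6 (0.33), whose pairs do not. The SE does not measure the spread between cultures. The scale understates differences of genes near 1 FPKM. Where a pair of values is given for a line, DMSO comes first and OTX-015 next.

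Most of the mass of these transcripts lay in a few genes. ITGA3, an alpha subunit for laminin, was at 230 to 921 FPKM, ITGB1, the beta subunit that most alpha subunits pair with, at 288 to 639, CD151 at 83.5 to 740, ITGA6 at 128 to 312 and LAMA5, the alpha chain of the widespread laminins, at 207 to 324. ITGB1 made up 76.5% and 92.2% of the FPKM of all beta subunits in vector cells under DMSO and OTX-015 and 51.9% and 75.7% in wtBRCA1 cells. Among the alpha subunits ITGA3 held the largest share in 3 libraries (55.7% and 70.9% in the vector line and 59.1% in wtBRCA1 cells under OTX-015), and ITGA6 held it in wtBRCA1 cells under DMSO (44.7% against 32.9% for ITGA3).

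**Figure D1:**
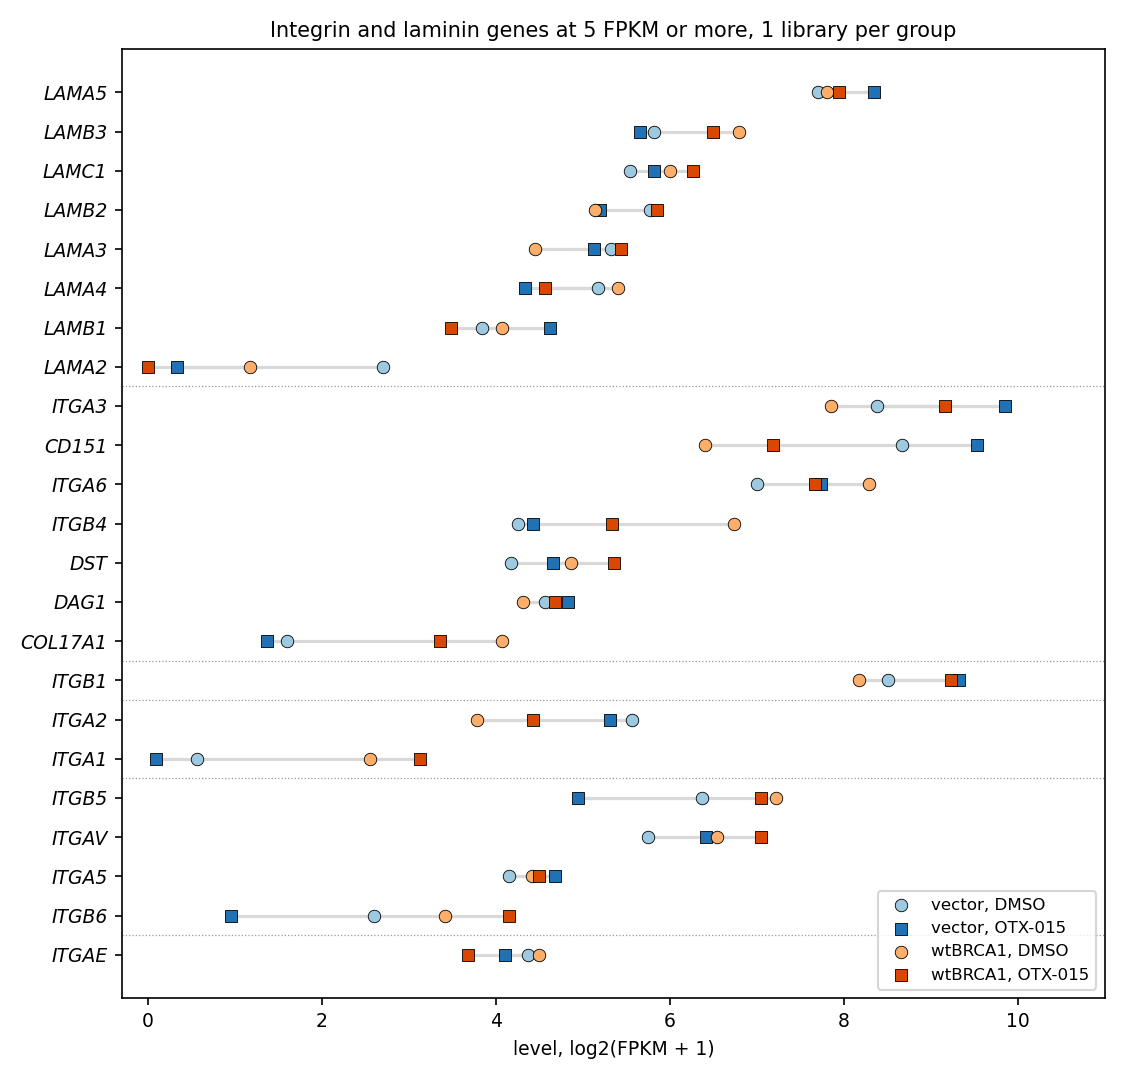
Level of 23 members at 5 FPKM or more, as log2(FPKM + 1) on the x axis, 1 point per library, ordered by role from laminin chains at the top through laminin receptors, ITGB1, collagen receptors and RGD receptors to ITGAE. CD151 sits far lower in both wtBRCA1 libraries, COL17A1 higher in both, and ITGA3 higher in both OTX-015 libraries.

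Of the chains LAMA3 and LAMB3, LAMB3 was higher in the wtBRCA1 line and LAMA3 was not. LAMB3 (ENSG00000196878, chromosome 1, 209614870 to 209652466 in GENCODE 29, hg38), a beta chain of epithelial laminin, was at 55.3 and 49.4 FPKM in vector cells against 110 and 89.2 in wtBRCA1 cells. The lines did not overlap, its ratios were 1.98 and 1.81, and its line effect of 0.91 ± 0.29 log2 did not pass (limma adjusted p = 0.0869). LAMA3 (chromosome 18, 23689443 to 23956222), the alpha chain it joins, was at 39.0 and 34.0 FPKM in vector cells against 20.9 and 42.4 in wtBRCA1 cells. The lowest and the highest of its values were both in the wtBRCA1 line.

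The FPKM ratios of LAMB3 over LAMA3 were 1.42 and 1.45 in vector cells against 5.24 and 2.10 in wtBRCA1 cells. These ratios of RNA levels have no test and say nothing of the trimers made.

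LAMA5, LAMC1, LAMA4, LAMA2, LAMB2 and LAMB1 gave no call for either factor. LAMA5 was at 207 and 324 FPKM in vector cells against 223 and 245 in wtBRCA1 cells. LAMC1, a gamma chain of widespread laminins, was at 45.6 and 55.2 FPKM against 63.0 and 75.8. Both were higher under OTX-015 in both lines, LAMC1 by 0.27 and 0.26 log2 and LAMA5 by 0.64 and 0.14, the last of which changed sign after quantile normalization. LAMA4, a chain of vascular and muscle laminins, was at 35.2 and 19.1 FPKM in vector cells against 41.4 and 22.7 in wtBRCA1 cells. Its OTX-015 libraries were both below its DMSO libraries, with near-equal ratios of 0.543 and 0.548, and the effect of -0.84 ± 0.32 log2 did not pass (limma adjusted p = 0.153). LAMA2, the alpha chain of muscle laminin, was at 5.51 and 0.263 FPKM in vector cells against 1.25 and 0 in wtBRCA1 cells (-1.77 ± 0.56 log2 for OTX-015, limma adjusted p = 0.0952). RP1-142L7.5, whose exons overlap LAMA4 on the opposite strand, was at 15.8 and 4.14 FPKM in vector cells against 22.9 and 10.1. RP1-69D17.3, opposite LAMA2, was at 8.73 and 0 against 1.01 and 0, and ADRM1, opposite LAMA5, at 230 and 281 against 189 and 356. They share 1.43% to 1.78% of the member's exon bases, and their part in its values was not tested. LAMB2 was at 53.6 and 35.7 FPKM in vector cells against 34.1 and 56.9 in wtBRCA1 cells, and LAMB1 was at 13.3 and 23.6 against 15.8 and 10.1. These beta chains of the other laminins went in opposite directions under OTX-015 in the lines. LAMC3 was at most 0.978 FPKM, LAMA1 at most 0.152, and LAMB4 was listed at 0 in all 4 libraries.

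**Figure D2:**
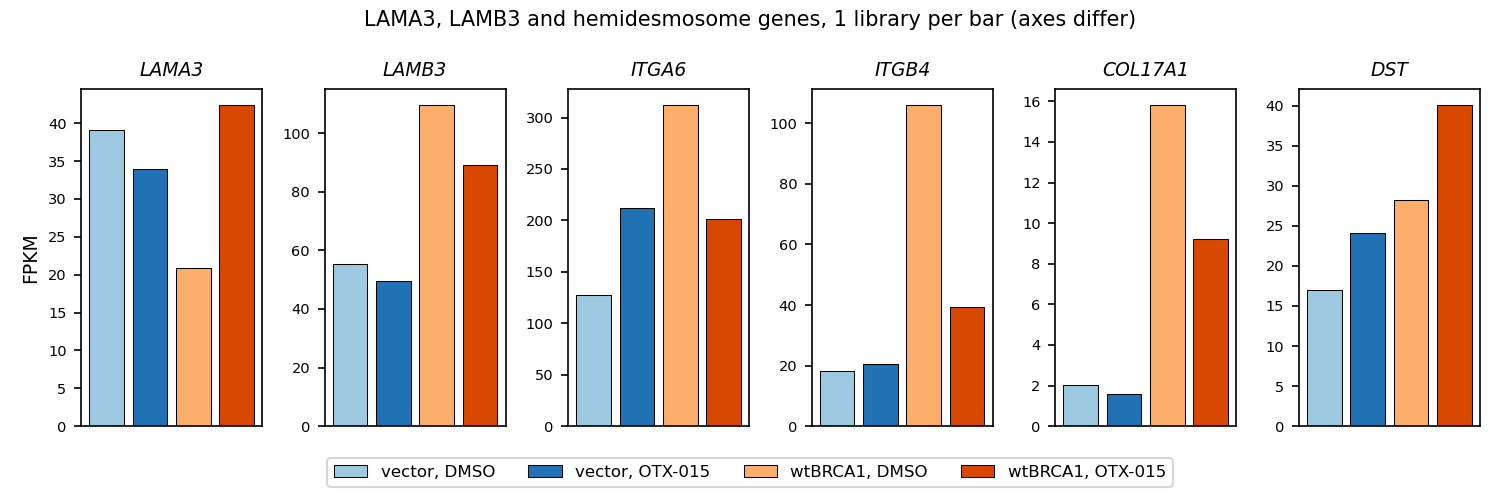
FPKM on the y axis of LAMA3, LAMB3, ITGA6, ITGB4, COL17A1 and DST, 1 panel per gene with its own axis from 0 and 1 bar per library. Both wtBRCA1 bars stand above both vector bars for LAMB3, ITGB4, COL17A1 and DST, while for LAMA3 and ITGA6 the lines overlap.

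Of the 8 laminin receptor and hemidesmosome members, COL17A1 and ITGB4 rose in the wtBRCA1 line and CD151 fell. The other 5 did not pass. Of all genes tested, 4.88% rose in that line and 3.41% fell. COL17A1 (ENSG00000065618, chromosome 10, 104031286 to 104085957), the transmembrane collagen of the hemidesmosome, was at 2.02 and 1.58 FPKM in vector cells against 15.8 and 9.21 in wtBRCA1 cells. The lines did not overlap, with ratios of 7.83 and 5.83, and COL17A1 rose in the wtBRCA1 line by 2.23 ± 0.39 log2 (SE, limma adjusted p = 0.00843). ITGB4 (ENSG00000132470, chromosome 17, 75721328 to 75757818), the beta subunit found in hemidesmosomes, was at 18.1 and 20.5 FPKM in vector cells against 106 and 39.2 in wtBRCA1 cells. It rose by 1.69 ± 0.40 log2 (limma adjusted p = 0.0324), with ratios of 5.85 under DMSO and 1.91 under OTX-015. ITGA6, its alpha partner, was at 128 and 212 FPKM in vector cells against 312 and 202 in wtBRCA1 cells, with the OTX-015 values close to each other (line effect 0.61 ± 0.33, limma adjusted p = 0.306). ITGA6 was 7.04 and 10.3 times the FPKM of ITGB4 in vector cells against 2.94 and 5.14 times in wtBRCA1 cells. DST, a plakin that binds keratin filaments in one of its forms, was at 17.0 and 24.1 FPKM against 28.2 and 40.1, with line differences of 0.70 and 0.71 log2 that did not pass (limma adjusted p = 0.228). Exons of ITGA6 overlap AC078883.4 on the opposite strand, at 32.3, 59.7, 81.2 and 57.6 FPKM in vector DMSO, vector OTX-015, wtBRCA1 DMSO and wtBRCA1 OTX-015. The sources do not say whether strand was used in counting, so reads of such partners cannot be told apart.

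CD151 and ITGA3 were lower in each wtBRCA1 library than in the vector library of the same treatment. CD151 (ENSG00000177697, chromosome 11, 832843 to 839831), the tetraspanin that binds laminin-binding integrins, was at 406 and 740 FPKM in vector cells against 83.5 and 144 in wtBRCA1 cells. It fell in the wtBRCA1 line by 2.31 ± 0.24 on the log2 scale (SE, limma adjusted p = 0.000668), to 0.206 times the vector level under DMSO and 0.195 times under OTX-015. The opposite-strand gene POLR2L overlaps 6.53% of the exon bases of CD151 and was at 181, 409, 76.4 and 135 FPKM in vector DMSO, vector OTX-015, wtBRCA1 DMSO and wtBRCA1 OTX-015. AP006621.8, which shares 1.04% of them, was at 201, 724, 101 and 241. Both partners were lower in the wtBRCA1 line and higher under OTX-015, as CD151 was, and their part in its values was not tested. ITGA3 (ENSG00000005884, chromosome 17, 50055968 to 50090481) was at 332 and 921 FPKM in vector cells against 230 and 571 in wtBRCA1 cells. Its line effect of -0.61 ± 0.21 log2 did not pass (limma adjusted p = 0.116). DAG1, dystroglycan, a laminin receptor outside the integrin family, was at 22.6 and 27.4 FPKM against 18.9 and 24.7. ITGA7, a laminin receptor of muscle, was at most 1.32 FPKM.

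Of the collagen receptors, both expressed alpha subunits differed between the lines, and in opposite directions. ITGA2 (chromosome 5, 52989326 to 53094779) was at 46.3 and 38.6 FPKM in vector cells against 12.8 and 20.5 in wtBRCA1 cells, and fell by 1.33 ± 0.35 on the log2 scale (SE, limma adjusted p = 0.0495). ITGA1, its neighbour on chromosome 5 (52787896 to 52959210), was at 0.471 and 0.0633 FPKM in vector cells against 4.87 and 7.75 in wtBRCA1 cells, and rose by 2.52 ± 0.48 log2 (limma adjusted p = 0.0132). PELO, whose exons overlap 2.56% of those of ITGA1 on the same strand, was at 9.76 to 13.4 FPKM in the 4 libraries. ITGA10 and ITGA11, the other collagen receptors, were at most 0.117 and 0.0800 FPKM.

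Of the 5 tested subunits of receptors for the RGD motif, as in fibronectin and vitronectin, ITGB5 and ITGB6 rose in the wtBRCA1 line and none fell. Among all genes tested, 4.88% rose and 3.41% fell. ITGB5 (chromosome 3, 124761948 to 124901418) was at 81.9 and 29.9 FPKM in vector cells against 148 and 131 in wtBRCA1 cells, and rose by 1.47 ± 0.35 log2 (SE, limma adjusted p = 0.0305). ITGB6 (chromosome 2, 160099666 to 160200313), an epithelial subunit that takes part in activating TGF-beta, was at 5.06 and 0.935 FPKM in vector cells against 9.65 and 16.8 in wtBRCA1 cells, and rose by 2.01 ± 0.53 log2 (limma adjusted p = 0.0486). For both genes the difference was larger under OTX-015 (2.10 and 3.20 log2) than under DMSO (0.85 and 0.81), a gap with no test. ITGAV itself was at 52.6 and 84.2 FPKM against 92.5 and 131, with line differences of 0.80 and 0.63 log2 (limma adjusted p = 0.158). Its opposite-strand partner AC017101.10 was at 23.1, 39.7, 62.7 and 104 FPKM in vector DMSO, vector OTX-015, wtBRCA1 DMSO and wtBRCA1 OTX-015, in the same order as ITGAV. ITGA5, the fibronectin receptor subunit, was at 16.7 and 24.7 FPKM against 20.4 and 21.6, with no call for either factor. ITGB8 was at 0.344 to 2.63 FPKM. ITGA2B and ITGB3 were at most 0.153 and 0.116 FPKM, and ITGA8 was listed at 0 in all 4.

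The integrins of leukocytes were near 0. ITGAL and ITGAD were listed at 0 in all 4 libraries, and ITGA9 and ITGAX were at most 0.0825 and 0.744 FPKM. ITGAM reached 1.72, ITGA4 2.68 and ITGB2 3.96 FPKM, each in 1 wtBRCA1 library, with another library at 0 for each. ITGB7 was at 1.90 and 2.17 FPKM in vector cells against 0.283 and 0.569 in wtBRCA1 cells. ZNF740, on the opposite strand, overlaps 42.1% of the exon bases of ITGB7 and was at 3.61 to 7.96 FPKM. ITGAE, known from intraepithelial T cells, was the exception, at 19.7 and 16.2 FPKM in vector cells against 21.5 and 11.8 in wtBRCA1 cells. It was present while CD3E, a defining T cell gene, was listed at 0. Summed over the 8 leukocyte markers, FPKM was 1.54 and 1.73 in vector cells but 10.5 and 6.96 in wtBRCA1 cells, of which CD14, a monocyte gene, gave 9.51 and 5.62. The part of that in the low leukocyte integrins was not tested.

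Between the lines, 6 members rose in the wtBRCA1 line (among them COL17A1, ITGB4, ITGB5, ITGB6 and ITGA1) and 2 fell (CD151 and ITGA2) of the 42, with 30 tested. In the same limma fit 4.88% of all genes tested rose and 3.41% fell (8.28% in either direction) at an adjusted p under 0.05. The median line effect was 0.19 log2 over the 30 members and 0.05 over all genes tested. These counts are descriptions, since a gene that passed the level filter in only 1 line had to differ. Under DMSO 6 members were at least 2-fold higher and 4 lower, where 14.8% and 11.7% of all genes were. Under OTX-015, 9 members were at least 2-fold apart in either direction, beside 27.7% of all genes: among them, COL17A1, ITGA1, ITGB2, ITGB5 and ITGB6 were higher in wtBRCA1 cells, and CD151, ITGB7 and LAMB1 lower. COL17A1 and ITGA1 were at least 2-fold higher in both treatments, and CD151 and the low ITGB7 lower in both. Of the 24 members at 5 FPKM or more, 11 were higher in both pairs, 6 lower in both and 7 opposite. The basal keratin KRT5, which hemidesmosomes anchor, rose in the wtBRCA1 line, at 29.4 and 23.2 FPKM in vector cells against 980 and 573 in wtBRCA1 cells (4.79 ± 0.27 log2, limma adjusted p = 3.75e-05). Summed over the 5 basal markers, of which 3 rose and none fell, FPKM was 170 and 845 in the vector line against 1977 and 1723, and TP63 was at 0 in both OTX-015 libraries. Of the 7 epithelial markers, the simple-epithelial keratins KRT8, KRT18 and KRT19 fell in the wtBRCA1 line and none rose. The myoepithelial list did not follow the basal one. Of its 4 tested genes MYLK fell for the line (-1.77 ± 0.41 log2, limma adjusted p = 0.0275) and none rose. Uncalled line effects were -0.63 log2 for OXTR, 0.88 for ACTA2 and 0.13 for MYH11. This list summed to 19.7 (vector DMSO), 12.3 (vector OTX-015), 10.6 (wtBRCA1 DMSO) and 9.34 FPKM (wtBRCA1 OTX-015). The part of basal identity in the members' values was not tested, and BRCA1 and other differences between these 2 lines cannot be told apart.

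**Figure D3:**
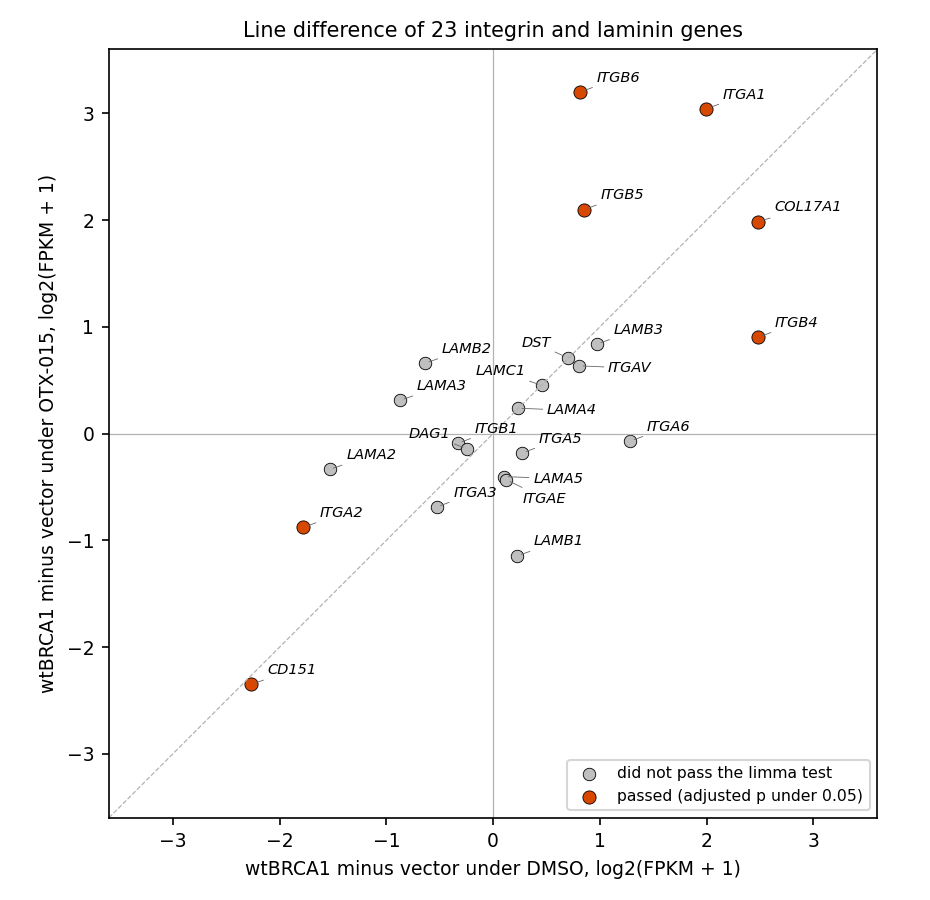
Line difference (wtBRCA1 minus vector, log2(FPKM + 1)) of 23 members under DMSO on the x axis and under OTX-015 on the y axis, 1 point per gene, with a dashed line of equal difference and coloured points for the 7 of them that passed the limma test. CD151 lies near the dashed line at -2.27 and -2.35, ITGB4 well below it (2.48 and 0.90) and ITGB6 well above it (0.81 and 3.20).

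These line calls were not equally firm. Over 9 alternatives in scaling, pseudocount, filter and variance model with all 4 libraries, CD151 kept the call in 7 (limma adjusted p from 0.000484 to 0.165), COL17A1 in 6 (0.0103 to 0.184) and ITGA1 in 5 (0.0122 to 0.156). ITGB5 kept it in 2, ITGB4 in 1, and ITGA2 and ITGB6 in 0. No member kept a call without the mean-variance trend or without the treatment term. Over all genes tested, the 1515 line calls came to 172 and 57 in those settings. With any 1 library left out together with the treatment term, 1 group holds a single library, so that fit cannot decide a call. The line effect then ran from -2.74 to -1.88 log2 for CD151 and from 1.87 to 2.59 for COL17A1. For ITGB4 it ran from 0.99 to 2.40 and for ITGB5 from 0.76 to 2.19.

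Under OTX-015, the members that rose in both lines were the subunits of integrin alpha-3 beta-1. ITGA3 rose from 332 to 921 FPKM in the vector line and from 230 to 571 in the wtBRCA1 line, ratios of 2.77 and 2.48 (1.39 ± 0.21 log2, SE, limma adjusted p = 0.00846). ITGB1 (ENSG00000150093, chromosome 10, 32900319 to 33005792) rose from 362 to 639 and from 288 to 600 FPKM, ratios of 1.76 and 2.08 (0.94 ± 0.22 log2, limma adjusted p = 0.0349). The pseudogene ITGB1P1, a copy of ITGB1 to which its reads could be assigned, was at 95.8 and 147 FPKM in vector cells against 102 and 153 in wtBRCA1 cells, higher under OTX-015 in both. CD151, the partner of alpha-3 beta-1, had ratios of 1.82 and 1.73 under OTX-015 and did not pass (0.82 ± 0.24 log2, limma adjusted p = 0.0716). Beside these ratios, the summed FPKM of all genes was also larger in both OTX-015 libraries, and the part of that in the members' values was not tested. After median-of-ratios rescaling the OTX-015 effects were 1.32 log2 for ITGA3, 0.87 for ITGB1 and 0.75 for CD151. With quantile normalization they were 1.09, 0.59 and 0.54. Over the 9 alternatives ITGA3 kept the call in 5 (limma adjusted p from 0.00709 to 0.487) and ITGB1 in 1 (0.0290 to 0.499). With any 1 library left out together with the line term, 1 group holds a single library, so that fit cannot decide a call. The effect then ran from 1.04 to 1.73 log2 for ITGA3 and from 0.77 to 1.10 for ITGB1.

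In all, 2 of the 42 members rose and 0 fell (30 tested), where 3.66% and 2.67% of all genes tested did (6.32% in either direction). At an unadjusted limma p under 0.05, 6 of the 30 members tested passed, beside 4169 of all 18295 genes tested. These were ITGA3, ITGB1 and CD151 with higher values under OTX-015, and LAMA2, LAMA4 and ITGB5 with lower values. The median OTX-015 effect was 0.09 log2 over the 30 members and 0.03 over all genes tested. In the vector line 1 member (ITGA3) was at least 2-fold higher and 5 lower, where 13.0% and 12.7% of all genes were. In the wtBRCA1 line 3 were higher and 4 lower, beside 12.9% and 13.4% of all genes. ITGA3 was 2-fold higher and LAMA2 2-fold lower in both lines. Of the 24 members at 5 FPKM or more, 9 were higher in both lines, 6 lower in both and 9 opposite.

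**Figure D4:**
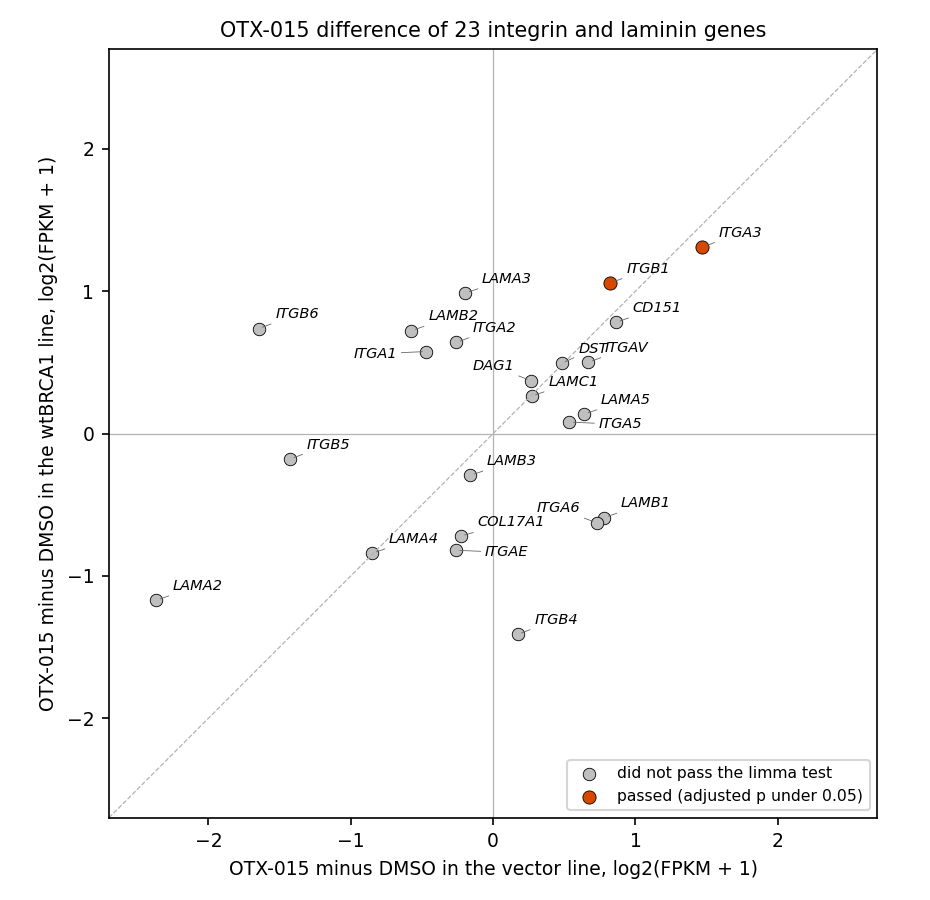
OTX-015 difference (OTX-015 minus DMSO, log2(FPKM + 1)) of 23 members in the vector line on the x axis and in the wtBRCA1 line on the y axis, 1 point per gene, with a dashed line of equal difference and coloured points for the 2 that passed the limma test. ITGA3 and ITGB1 lie near the dashed line at upper right, while ITGB6 (-1.65 and 0.74) and ITGB4 (0.17 and -1.41) lie far from it.

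The response to OTX-015 differed between the lines by at least 1 log2 unit for 11 of the 30 members tested, beside 27.2% of all genes, and this difference has no test in 4 libraries. It was in favour of the wtBRCA1 line for ITGB6 (2.39 log2), LAMB2 (1.30), ITGB5 (1.25), LAMA2 (1.20), LAMA3 (1.18), ITGA1 (1.04) and the low ITGB2. It went the other way for ITGB4 (-1.58), LAMB1 (-1.37), ITGA6 (-1.36) and the low ITGA4. LAMA2 went from 5.51 to 0.263 FPKM in the vector line and from 1.25 to 0 in the wtBRCA1 line. On log2(FPKM + 1) its fall in the wtBRCA1 line could not be larger, so its value does not show a weaker response there. ITGA6 and ITGB4, the pair of the hemidesmosome, both had lower values under OTX-015 in the wtBRCA1 line (0.646 and 0.370 times DMSO) and not in the vector line (1.66 and 1.13 times).

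Genes that work with these receptors were read from 4 lists. The counts of each list stand beside the shares of all genes tested in the same fit. For OTX-015 3.66% rose and 2.67% fell, and for the line 4.88% rose and 3.41% fell. Of 26 cytoplasmic adaptors of integrins, 24 were tested. Under OTX-015 3 rose and 1 fell. RSU1, a partner of the ILK complex, rose by 1.54 ± 0.33 log2, FLNA, an actin crosslinker, by 1.38 ± 0.29 and ACTN4, an actinin, by 0.83 ± 0.20 (limma adjusted p from 0.0248 to 0.0426), and TNS3, a tensin, fell by 2.15 ± 0.43 on the log2 scale. Between the lines RSU1 rose, at 32.4 and 65.6 against 92.9 and 395 FPKM. Of 2 that fell, ILK, the pseudokinase at the beta tails, was the larger in effect (101 and 124 against 21.0 and 23.3 FPKM). The median effects of the list were 0.14 log2 for OTX-015 and -0.17 for the line.

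Of 23 other ligands and basement membrane genes, 17 were tested. NTN4, a netrin of basement membranes that binds laminin, fell under OTX-015 from 34.0 to 6.56 FPKM in the vector line and from 34.5 to 6.27 in the wtBRCA1 line (-2.25 ± 0.34 log2, SE, limma adjusted p = 0.0081), and none rose. Between the lines 5 rose and 1 fell. NPNT, a ligand of the integrin with ITGA8, was listed at 0 in the vector line and was at 32.0 and 45.5 FPKM in the wtBRCA1 line, while ITGA8 itself was listed at 0 in all 4 libraries. TNC, tenascin-C, was at 4.90 and 3.42 against 43.7 and 37.8 FPKM. COL7A1, the collagen of anchoring fibrils beneath hemidesmosomes, was at 1.99 and 1.75 against 12.6 and 11.2. FBN1, fibrillin-1, rose by 1.95 log2, as did COL4A5, the smallest of the 5, by 1.49. FBLN1, fibulin-1, fell and was at 80.5 and 84.2 against 28.2 and 28.6 FPKM.

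Of 11 hemidesmosome, tetraspanin and membrane partners, all tested, 3 rose under OTX-015 and none fell, and 4 rose and 1 fell between the lines. PLEC, plectin, the linker of ITGB4 to keratin, was at 134 and 304 FPKM in vector cells against 263 and 884 in wtBRCA1 cells, and rose for both factors (1.46 and 1.25 log2). CD81, a tetraspanin, was at 711 and 1851 against 302 and 782 FPKM. It rose under OTX-015 and fell in the wtBRCA1 line, the pattern of signs seen in CD151. BSG rose for both factors, and KRT5 and CD47 rose for the line. Of 19 dystroglycan partners and glycosyltransferases, 17 were tested. LARGE, which extends the laminin-binding sugar of dystroglycan, rose under OTX-015 (0.748 to 3.66 and 2.07 to 10.7 FPKM, 1.68 ± 0.42 log2, limma adjusted p = 0.0456). Between the lines 2 rose, DMD and POMT1, and 1 fell.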

How the data were processed

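Per the submitters' processing notes, TopHat2, Cufflinks and hg38 were used, and the authors deposited FPKM values per gene. Versions, annotation release and scaling between libraries are not given in the sources used here. The kit was directional, per the labels' protocols. The 4 deposited tables were joined by gene identifier (60487 genes, 56993 of them in GENCODE 29, which gave coordinates and exon overlaps). Genes of short structural RNA (7513) were set aside, 68 repeated symbols were summed, and 18295 genes at 1 FPKM or more in at least 1 library were analysed as log2(FPKM + 1). limma 3.58.1 (R 4.3.3) was fitted with line and treatment as terms, the mean-variance trend and Benjamini-Hochberg adjustment over all genes kept. Tested on simulated data, the fit made more false calls than its threshold of 0.05 aims for, so calls close to the threshold are weak. Values in all libraries are given for the named members at 5 FPKM or more. From each list up to 4 called genes each way are named, plus COL4A5 to complete a count. A few genes counted among the members and lists are not reported here by name. Members, lists and tests were chosen with earlier results of these data known. Alternatives covered pseudocounts, filters, scaling, the variance model, the other factor and each library left out. Python 3.11.15, pandas 2.3.3, numpy 2.4.6 and matplotlib 3.10.9 were used.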

Additional observations from a re-analysis of the deposited data

Results flagged for a closer look

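Members whose libraries went in opposite directions in the 2 lines or the 2 treatments, each by at least 0.5 log2, are given as values, and the difference was not tested. Under OTX-015, ITGB6 was lower in the vector line and higher in the wtBRCA1 line (-1.65 and 0.74 log2, a difference of 2.39). LAMB2 did the same (-0.57 and 0.72, a difference of 1.30), and its line difference was likewise of opposite sign under DMSO and OTX-015 (-0.64 and 0.66, the same difference of 1.30). LAMB1 (0.78 and -0.59, a difference of -1.37) and ITGA6 (0.73 and -0.63, a difference of -1.36) were higher in the vector line and lower in the wtBRCA1 line under OTX-015.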

How the results depend on the processing

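No paired analysis of replicates was possible because each group holds 1 library, apart from the comparison within each line and each treatment that the fit itself makes. The OTX-015 count of 2 members was 2 with robust estimation, 1 with a pseudocount of 0.1 or of 5, a filter of 5 FPKM or median-of-ratios rescaling (ITGA3 each time), and 0 with no filter, after quantile normalization, without the trend or without the line term. The line count of 8 was 6 with robust estimation, 5 at pseudocount 0.1, 4 at pseudocount 5, after median-of-ratios rescaling or after quantile normalization, 3 at a filter of 5 FPKM, 2 with no filter, and 0 without the trend or the treatment term. With 1 library left out together with the other factor, 1 group holds a single library, so counts of calls from those fits decide nothing about the members. Of all genes, 1157 OTX-015 and 1515 line calls came to 4 and 172 without the trend. The called effect of each called member kept its sign in all of these settings. Single effects were recomputed for the 24 members at 5 FPKM or more, not for the 6 at 1 to 5 FPKM. With all libraries kept, 3 effects that were not called changed sign: ITGA1 for OTX-015 with a pseudocount of 0.1 (-0.57), ITGA6 for OTX-015 (-0.02 and -0.19) and LAMB2 for the line (-0.02 and -0.07) after median-of-ratios rescaling and quantile normalization. Counts of members at least 2-fold apart in a pair moved with the pseudocount. With 0.1, those higher under OTX-015 were 2 in the vector line and 5 in the wtBRCA1 line, and those lower in the wtBRCA1 line under OTX-015 were 5. With 5, those lower under OTX-015 were 1 and 1, those lower in the wtBRCA1 line were 2 under DMSO and 1 under OTX-015, and differences of response were 7. After quantile normalization 1 member was 2-fold higher under OTX-015 in the wtBRCA1 line. Depth is unknown, so the precision of low values cannot be given.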
